A study of Mus musculus with 6 samples.

Results

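The genes described here are 10 that set the shape of mitochondria, namely the fusion genes *Mfn1*, *Mfn2*, *Opa1*, and *Oma1*, the fission genes *Dnm1l*, *Fis1*, *Mff*, and *Mief1*, and the cristae genes *Immt* and *Chchd3*. They were chosen by symbol, and all 10 were found, each as 1 entry, among the 55491 genes of the deposited table. The tissue was inguinal white fat (IWAT) of 4-week-old male mice of C57BL/6J background kept on regular chow, taken from 3 *Ebf2*+/+ mice and 3 mice heterozygous for the knock-in nonsense allele *Ebf2* E165X (E165X/+), 1 library per mouse. The allele was made by CRISPR/Cas9 editing and is carried by every cell, so the comparison is not confined to adipocytes. The study examined mitochondria of this tissue by electron microscopy, and the question addressed here is whether RNA of the shaping machinery differed with genotype.

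Mitochondria fuse and divide continually. Mitofusins join the outer membranes of neighboring organelles and OPA1 joins the inner membranes, whereas the dynamin-related GTPase DRP1, recruited by adaptors on the outer membrane, constricts and divides them. The folds of the inner membrane, the cristae, carry the respiratory chain and are held at their necks by the MICOS complex and by OPA1. In brown and beige adipocytes mitochondria are abundant and rich in cristae, and in white adipocytes they are fewer and thinner.

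Values are CPM, the authors' expected counts (estimated fragments per gene) relative to the TMM-scaled library size. Libraries held between 106820505 and 135039488 counts, and the lowest count of any of the 10 genes was 1303, for which counting error alone is 2.77%. The spread between mice therefore limits the precision. A log2 fold change compares E165X/+ with *Ebf2*+/+ mice and was fitted with edgeR's quasi-likelihood test with Benjamini-Hochberg adjustment over 32664 genes, and calls needed both an adjusted *P* under 0.05 and a fold change of more than 1.5. *Ebf2* itself, the check of the labels, had counts of 4603, 4357, and 4611 in *Ebf2*+/+ mice against 2635, 2863, and 2697 in E165X/+ mice, and thus separated the genotypes. All 8 adipocyte markers listed (among them *Adipoq*, *Plin1*, and *Lpl*) were measured in every library, and together they took 1.66% to 1.88% of the counts in *Ebf2*+/+ libraries and 1.83%, 1.60%, and 1.05% in E165X/+ libraries. In bulk tissue, fewer cells of a type and less RNA per cell cannot be told apart.

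The third E165X/+ library stood apart from the others. The 8 skeletal muscle markers, led by the fast myosin gene *Myh4*, took 4.31% of its counts, against 0.337% and 0.0823% in the other E165X/+ libraries and 0.185%, 0.765%, and 0.301% in *Ebf2*+/+ libraries. All 8 markers were measured in every library. *Myh4* stood at 11440 CPM there and at 2354 CPM or less elsewhere. Skeletal muscle is rich in mitochondria and expresses the genes described here, and the part of muscle RNA in their values was not tested. All 10 genes had their highest E165X/+ value in this library, and 7 of them had their highest value of all 6 libraries there. The differences of the 10 genes, the ratios, and the counts of the gene lists are therefore given with and without it.

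No gene of the 10 passed the call by edgeR, against 0.00918% of all genes tested. Adjusted *P* values from edgeR ran from 0.783 to 0.999. At an unadjusted *P* under 0.05, 2 of the 10, *Opa1* and *Immt*, were lower (3.09% of all genes tested were lower at this level, and 4.21% of the genes with 10 or more counts in each library), and none was higher (1.68% of all genes). DESeq2, the tool of the study, called 0 of the 10 (0.302% of all genes tested) and limma-voom 0 (4 of 32664 genes). With each tool 2 of the 10 again were lower at an unadjusted *P* under 0.05, beside 3.26% of all genes with DESeq2 and 1159 of 32664 with limma-voom. With edgeR that count became 0 when the first or second *Ebf2*+/+ mouse or the first or second E165X/+ mouse was left out. In that order, 722, 923, 1064, and 797 of 32173 to 32285 genes were lower at that level. The median log2 fold change of the 10 genes was −0.039, beside 0.014 over all genes tested. For 8 of the 10, the 95% interval of the difference lay inside a 1.5-fold change in either direction, and for *Mfn1* and *Chchd3* it did not. Without the third E165X/+ library, 4 of the 10 (*Chchd3*, *Opa1*, *Immt*, and *Mfn2*) were lower at an unadjusted *P* under 0.05 (3.54% of all genes), none passed the call (0.0343% of all genes), and the median was −0.14. With the third library of each genotype left out, 4 of the 10 were again lower at that level (4.39% of all genes) and none passed the call (0.0286%).

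**Figure D1:**
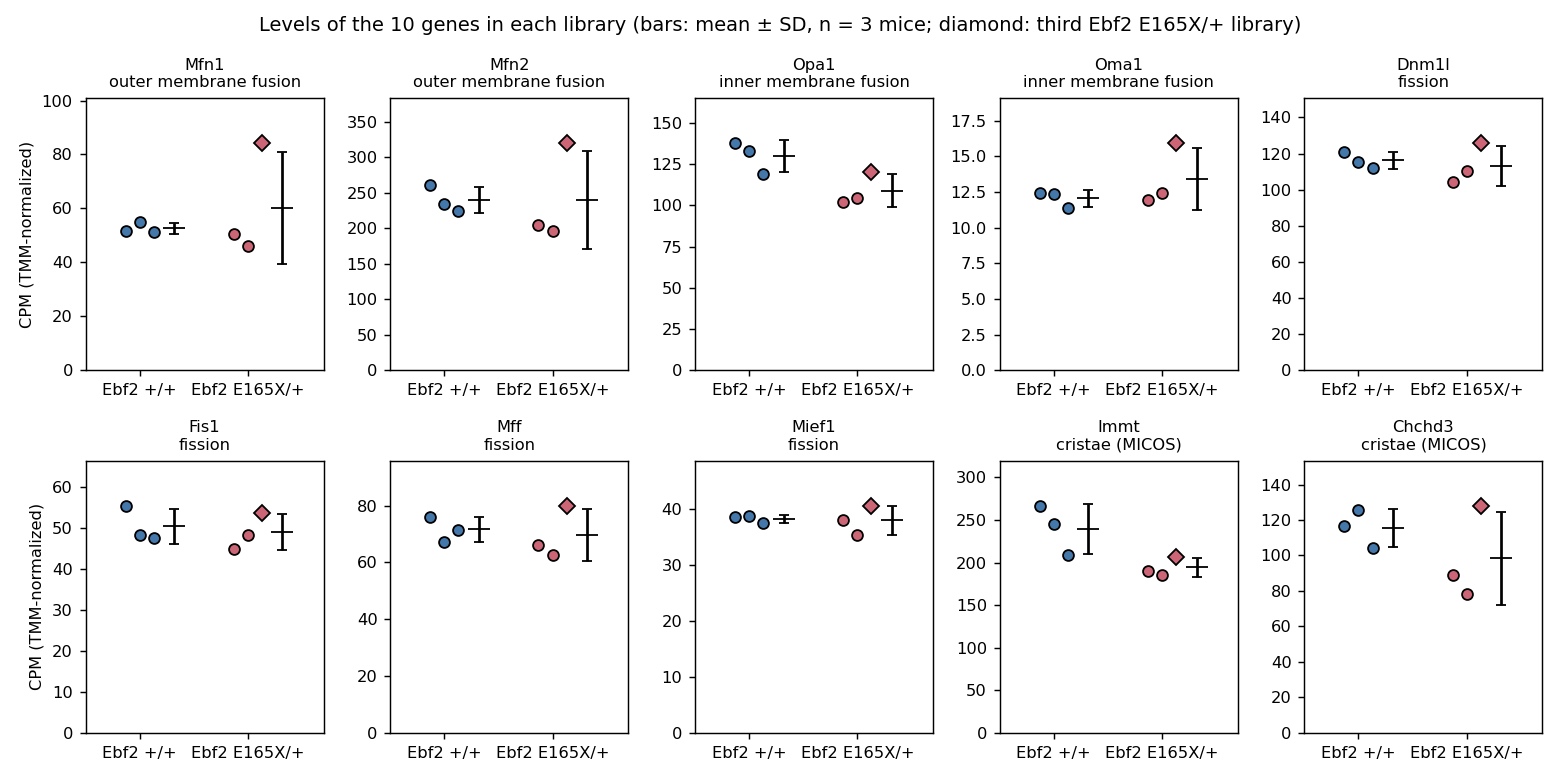
Level of each of the 10 genes (y axis, CPM from 0) in the 3 *Ebf2*+/+ libraries (blue) and 3 E165X/+ libraries (red, with the third as a diamond), with the mean ± SD beside the points. The diamond is the highest red point in all 10 panels, and only in the *Immt* panel do all red points lie below all blue ones.

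Of the 2 cristae genes, *Immt* (ENSMUSG00000052337, GRCm38 chr6:71831331-71877388, plus strand) encodes mitofilin, also called MIC60, the core subunit of MICOS that bends the membrane at crista junctions, and had the largest difference of the 10 in all 6 libraries. Its level was 266, 245, and 208 CPM in *Ebf2*+/+ mice and 191, 185, and 207 CPM in E165X/+ mice. Every E165X/+ mouse thus lay below every *Ebf2*+/+ mouse, although the third library of each genotype differed by little, a separation in this direction that 6.78% of genes with 10 or more counts in each library had. The log2 fold change was −0.30 (SE 0.11, 95% interval −0.57 to −0.042), with an unadjusted *P* of 0.0285 and an adjusted *P* of 0.783 from edgeR. Without the third E165X/+ library it was −0.35 (SE 0.12, adjusted *P* = 0.861 from edgeR).

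*Chchd3* (ENSMUSG00000053768, chr6:32790976-33060260, minus strand) encodes MIC19, the small MICOS subunit that binds mitofilin and links it to the outer membrane complex. It stood at 117, 125, and 104 CPM in *Ebf2*+/+ mice and at 89.2, 78.2, and 128 CPM in E165X/+ mice. The first 2 E165X/+ mice were the lowest of the 6 and the third was the highest, so that the genotypes overlapped completely. With all libraries the log2 fold change was −0.23 (SE 0.18) with an adjusted *P* of 0.783 from edgeR. Without the third E165X/+ library it was −0.46 (SE 0.11), the largest of the 10 in that fit, with an unadjusted *P* of 0.00266 and an adjusted *P* of 0.399 from edgeR. Without the second E165X/+ library, the lowest, it was −0.088 instead. Over all alternatives run, the adjusted *P* of *Chchd3* lay between 0.192 and 0.999.

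Of the inner membrane fusion genes, *Opa1* (ENSMUSG00000038084, chr16:29579334-29654884, plus strand) was the other gene of the 10 at an unadjusted *P* under 0.05. It encodes the dynamin-like GTPase that fuses inner membranes and narrows crista junctions. Its level was 138, 133, and 119 CPM in *Ebf2*+/+ mice and 102, 104, and 120 CPM in E165X/+ mice. The third E165X/+ mouse lay just above the lowest *Ebf2*+/+ mouse, and the other E165X/+ mice lay below all of them. The log2 fold change was −0.26 (SE 0.097, 95% interval −0.48 to −0.030), with an unadjusted *P* of 0.0316 and an adjusted *P* of 0.783 from edgeR. For *Opa1*, too, the difference was as large without the third E165X/+ library, at −0.33 (SE 0.090, adjusted *P* = 0.581 from edgeR). *Oma1* (ENSMUSG00000035069, chr4:103313812-103371868, plus strand), the stress-activated protease that cleaves OPA1 and so stops fusion, stood at 12.5, 12.4, and 11.4 CPM in *Ebf2*+/+ mice and at 11.9, 12.5, and 15.9 CPM in E165X/+ mice. Only the third E165X/+ mouse lay outside the range of the others. The log2 fold change of *Oma1* was 0.15 (SE 0.13, adjusted *P* = 0.783 from edgeR) and 0.015 without that library. Proteolytic forms of OPA1 and splice forms of its RNA were not measured by counts per gene.

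The 250 bases before the RefSeq start of *Opa1* and *Immt* are printed because these are the genes with an unadjusted *P* under 0.05, both of them lower. Capitals mark a match to the NRF1 motif GCGCATGCG on both strands, whose matches overlap by all but 1 base. NRF1 is a transcription factor known for its control of nuclear genes of mitochondrial proteins. The *Immt* sequence, without capitals, held none of the motifs searched. Both are on the plus strand of GRCm38, at chr16:29579084-29579333 and chr6:71831070-71831319.
Opa1: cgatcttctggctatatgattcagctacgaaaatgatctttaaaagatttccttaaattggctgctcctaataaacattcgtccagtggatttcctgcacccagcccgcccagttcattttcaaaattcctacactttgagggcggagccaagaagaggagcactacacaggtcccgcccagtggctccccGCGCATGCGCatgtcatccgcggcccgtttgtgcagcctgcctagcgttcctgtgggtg
Immt: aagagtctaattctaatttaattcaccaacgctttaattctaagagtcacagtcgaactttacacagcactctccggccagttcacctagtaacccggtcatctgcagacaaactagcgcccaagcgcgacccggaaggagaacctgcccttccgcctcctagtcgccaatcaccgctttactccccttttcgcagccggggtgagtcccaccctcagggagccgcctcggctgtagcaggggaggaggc

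The match in *Opa1* starts at −59 relative to the start. On both strands of the 15 RefSeq windows of the 10 genes (250 bases before to 50 after each start), 4 motifs were searched, none of whose matches overlapped that of another motif. The NRF1 motif was found for *Opa1* alone among the 10 genes, beside 1.95% of all genes with a window and 1.75% of all 32851 windows. The YY1 motif AANATGGCG was found for *Mfn1* alone, at −109, beside 2.76% of all genes with a window and 2.38% of all windows. The EBF motif CCCNNGGG was found in 3 of the 15 windows, 1 each of *Oma1*, *Fis1*, and *Dnm1l*, and in 13.7% of all windows, and its longer form with 1 more fixed base at each end, found in 0.904% of all windows, was not found for any of the 10. The ERR motif TCAAGGTCA (0.423% of all windows) was not found for them either, which says only that these letters are not in these windows.

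Both mitofusin genes varied most with the third E165X/+ library. *Mfn2* (ENSMUSG00000029020, chr4:147873599-147904704, minus strand), the mitofusin that also tethers mitochondria to the endoplasmic reticulum, stood at 260, 234, and 224 CPM in *Ebf2*+/+ mice and at 204, 196, and 319 CPM in E165X/+ mice. The first 2 E165X/+ mice were the lowest of the 6 and the third the highest, and the group means of 240 ± 18.4 and 240 ± 69.2 CPM (SD, n = 3 mice) were alike while the SD was not. The log2 fold change was 0.00063 (SE 0.19, 95% interval −0.45 to 0.45, adjusted *P* = 0.999 from edgeR). Without the third E165X/+ library it was −0.26 (SE 0.10), with an unadjusted *P* of 0.0337 and an adjusted *P* of 0.861 from edgeR, within a range of 0.603 to 0.999 over the alternatives run.

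*Mfn1* (ENSMUSG00000027668, chr3:32529465-32579239, plus strand), the mitofusin with the stronger tethering activity between mitochondria, stood at 51.6, 55.0, and 51.3 CPM in *Ebf2*+/+ mice and at 50.3, 46.2, and 84.1 CPM in E165X/+ mice. The third E165X/+ library was again the highest and the other 2 the lowest. Its log2 fold change was 0.19 (SE 0.21, adjusted *P* = 0.798 from edgeR), the most positive of the 10, and it turned to −0.13 without that library. Relative to the mean of the first 2 E165X/+ libraries, the third was 0.80 higher for *Mfn1* on the log2 CPM scale, 0.68 for *Mfn2*, 0.61 for *Chchd3*, and 0.39 for *Oma1*. This difference was smallest for *Immt* and *Mief1*, at 0.14 and 0.15.

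**Figure D2:**
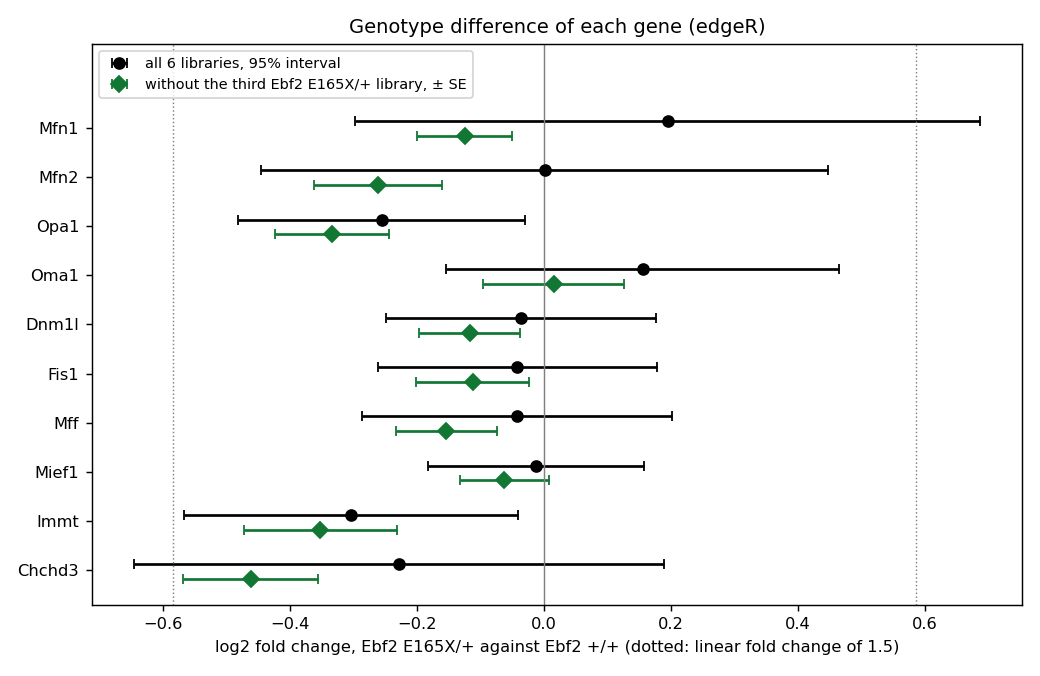
Log2 fold change (x axis) of each gene with its 95% interval in all 6 libraries (black) and with its SE without the third E165X/+ library (green). Only the black intervals of *Opa1* and *Immt* leave out 0, and leaving out the library moves every gene to the left, with *Mfn1*, *Mfn2*, and *Chchd3* moving most.

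The 4 fission genes differed little between the genotypes. *Dnm1l* (ENSMUSG00000022789, chr16:16312230-16358959, minus strand) encodes DRP1, the GTPase that divides mitochondria, and stood at 121, 115, and 112 CPM in *Ebf2*+/+ mice and at 104, 110, and 126 CPM in E165X/+ mice. The E165X/+ values surrounded the *Ebf2*+/+ values, and the log2 fold change was −0.036 (SE 0.091, 95% interval −0.25 to 0.18, adjusted *P* = 0.927 from edgeR). *Mff* (ENSMUSG00000026150, chr1:82724890-82752394, plus strand), the main adaptor that brings DRP1 to the outer membrane, stood at 76.1, 67.3, and 71.6 CPM and at 66.2, 62.6, and 79.9 CPM in the same order. *Fis1* (ENSMUSG00000019054, chr5:136953275-136966234, plus strand), a tail-anchored outer membrane protein linked to fission under stress, stood at 55.3, 48.2, and 47.5 CPM and at 44.8, 48.3, and 53.6 CPM. For both adaptors the genotypes overlapped over most of their range.

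*Mief1* (ENSMUSG00000022412, chr15:80234018-80253371, plus strand), which encodes the adaptor MiD51, was the steadiest of the 10, at 38.7, 38.8, and 37.5 CPM in *Ebf2*+/+ mice and 38.0, 35.3, and 40.5 CPM in E165X/+ mice. Log2 fold changes of *Mff*, *Fis1*, and *Mief1* were −0.043 (SE 0.10), −0.042 (SE 0.094), and −0.013 (SE 0.073), with adjusted *P* values of 0.921 to 0.977 from edgeR. A *P* that misses the threshold does not show equal levels, but the 95% intervals of the 4 fission genes lay between −0.29 and 0.20. Without the third E165X/+ library the 4 values ran from −0.15 to −0.063.

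Ratios within a library do not depend on its scaling. The log2 ratio of *Opa1* to *Dnm1l* was 0.19, 0.21, and 0.089 in *Ebf2*+/+ mice and −0.030, −0.078, and −0.063 in E165X/+ mice. All 3 E165X/+ mice, the third included, lay below all *Ebf2*+/+ mice, with a difference of −0.22 (*P* = 0.1 and adjusted *P* = 0.2 over the 4 ratios, two-sided exact permutation test, for which 0.1 is the smallest *P* that 3 mice against 3 allow). The log2 ratio of *Mfn2* to *Mfn1* was 2.33, 2.09, and 2.13 in *Ebf2*+/+ mice and 2.02, 2.08, and 1.92 in E165X/+ mice. These groups did not overlap either, but the lowest *Ebf2*+/+ value and the highest E165X/+ value were nearly equal, and the difference of −0.18 had the same *P* values in the exact permutation test. For *Fis1* to *Mff* the difference was 0.0069, and for *Immt* to *Chchd3* it was −0.042 (adjusted *P* = 0.9 for both, exact permutation test), with overlapping genotypes. Leaving out the third E165X/+ library gave differences of −0.21 for *Opa1* to *Dnm1l*, −0.13 for *Mfn2* to *Mfn1*, 0.043 for *Fis1* to *Mff*, and 0.12 for *Immt* to *Chchd3*. The difference of *Mfn2* to *Mfn1* was −0.10 without the first *Ebf2*+/+ mouse, which had the highest ratio.

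**Figure D3:**
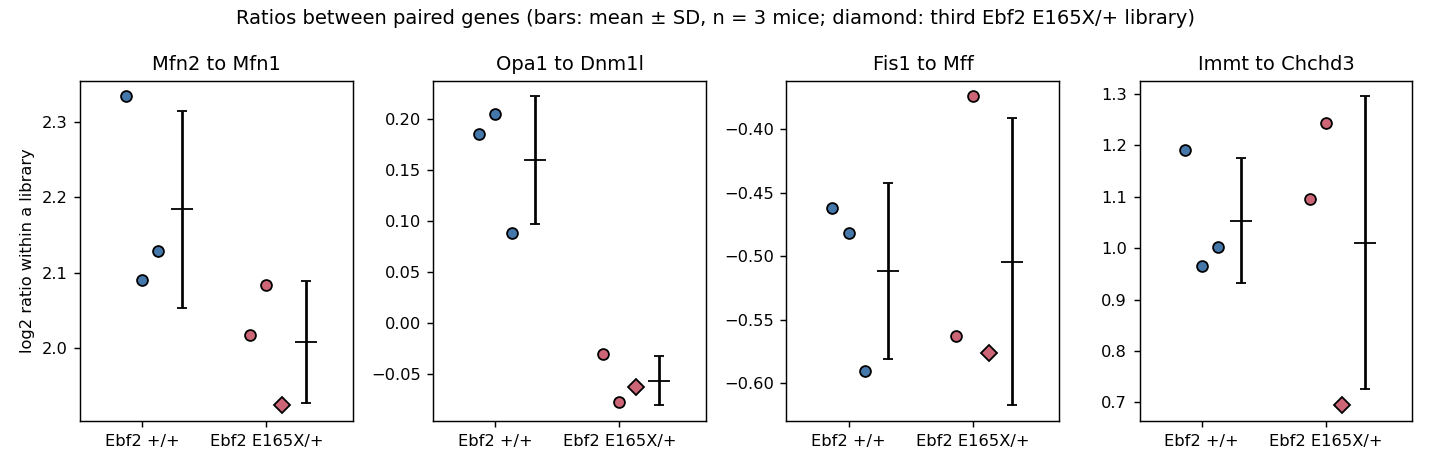
Log2 ratio of 2 genes within each library (y axis, which does not start at 0) for 4 pairs, with the mean ± SD of 3 mice per genotype beside the points. *Opa1* to *Dnm1l* separates the genotypes with the third E165X/+ library (diamond) among its group, and *Fis1* to *Mff* does not.

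Averaged over the 10 genes and set against the *Ebf2*+/+ mean, log2 CPM came to 0.071, 0.013, and −0.083 in *Ebf2*+/+ mice and to −0.18, −0.21, and 0.18 in E165X/+ mice. The first 2 E165X/+ mice lay below the *Ebf2*+/+ mice and the third above them. By role, the cristae genes stood at −0.35, −0.46, and −0.027 in E165X/+ mice and the fission genes at −0.11, −0.11, and 0.11. The outer membrane fusion genes stood at −0.15, −0.24, and 0.55, and the inner membrane fusion genes at −0.18, −0.13, and 0.15. The differences between roles were not tested.

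For comparison, 36 nuclear genes of complex I, the first enzyme of the respiratory chain in the cristae, had a mean of −0.47, −0.46, and −0.073 in E165X/+ mice. Their median log2 fold change was −0.30, and 18 of the 36 were lower at an unadjusted *P* under 0.05 (3.09% of all genes tested). With the third E165X/+ library left out, the median was −0.47 and 35 of the 36 were lower at that level (3.54% of all genes). None of the 36 passed the call by edgeR or DESeq2 in all 6 libraries (0.00918% and 0.302% of all genes tested). The 15 enzymes of mitochondrial fatty acid β-oxidation had a mean of −0.56, −0.64, and −0.65, with no upward shift in the third library. Their median log2 fold change was −0.60, and all 15 were lower at an unadjusted *P* under 0.05, beside the same 3.09% of all genes. All 15 again were without the third E165X/+ library, with a median of −0.59. In all 6 libraries edgeR called none of the 15 (lowest adjusted *P* = 0.119 from edgeR), whereas DESeq2 called 9, beside the same shares of all genes. The mean of the 10 genes minus that of complex I was −0.053, −0.028, and 0.080 in *Ebf2*+/+ mice and 0.29, 0.25, and 0.25 in E165X/+ mice. The third E165X/+ library thus lay with its group on this scale. No test was made, since this difference was chosen with these data known.

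**Figure D4:**
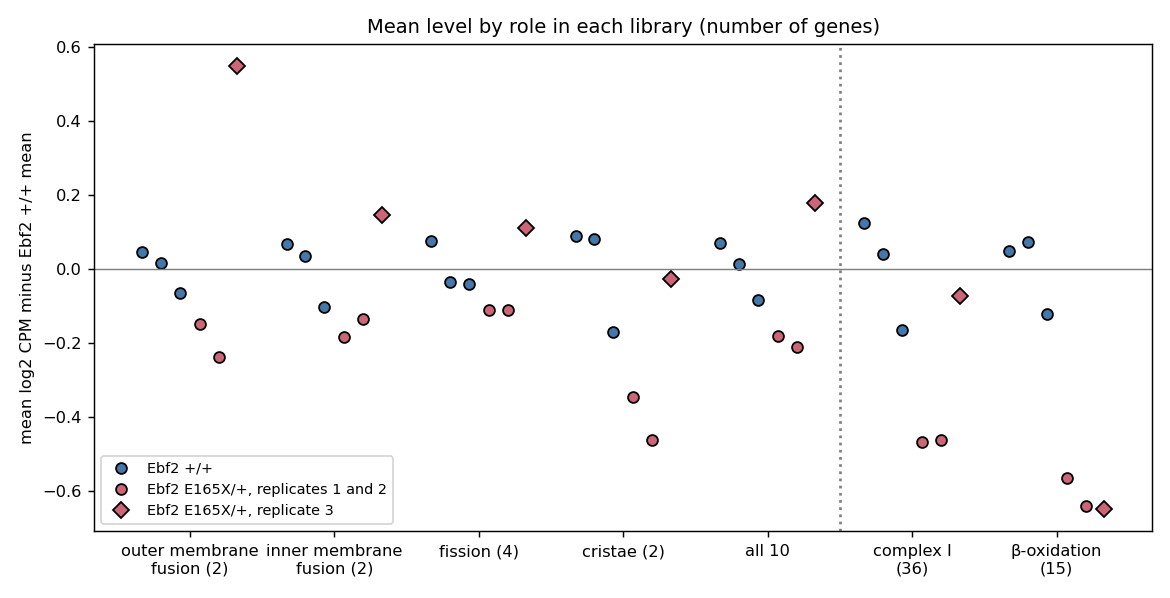
Mean log2 CPM of each role relative to the *Ebf2*+/+ mean (y axis) in each library, with complex I and β-oxidation to the right of the dotted line and the number of genes in parentheses. The third E165X/+ library (diamond) lies above the other E165X/+ libraries in every column except β-oxidation.

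The wider machinery was given by 48 related genes in 7 roles, of which 40 had a log2 fold change below 0. At an unadjusted *P* under 0.05, 13 of the 48 were lower and 0 higher, beside 3.09% and 1.68% of all genes tested, and none passed the call by edgeR (adjusted *P* values from 0.683 to 0.995). The median log2 fold change of the 48 was −0.15. The genotypes did not overlap for 10 lower genes and 1 higher gene (*Miga1*, a fusion regulator of the outer membrane), beside 6.78% and 6.66% of genes with 10 or more counts in each library. Leaving out the third E165X/+ library raised the lower ones to 29 (12.8% of genes). In the absence of the third E165X/+ library, 22 of the 48 were lower at an unadjusted *P* under 0.05 (3.54% of all genes). With DESeq2 13 were lower at that level (3.26% of all genes), and *Afg3l2* alone had an adjusted *P* under 0.05 (0.0226 from DESeq2, against 0.582% of all genes), at a fold change under 1.5.

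Around the inner membrane, all 8 genes listed with inner membrane fusion, most of them for proteases and scaffolds, had log2 fold changes below 0. *Afg3l2*, a subunit of the m-AAA protease that limits OMA1 activity, stood at 95.8, 92.4, and 87.5 CPM in *Ebf2*+/+ mice and at 69.3, 69.6, and 77.7 CPM in E165X/+ mice, without overlap. Its log2 fold change was −0.35 (SE 0.078), with an unadjusted *P* of 0.00238 and an adjusted *P* of 0.683 from edgeR, which ran from 0.0226 to 0.941 over the alternatives. *Phb2*, a prohibitin that forms ring scaffolds around OPA1 and the proteases, and *Letm1*, a cation exchange protein of the inner membrane, had log2 fold changes of −0.25 (SE 0.085) and −0.37 (SE 0.12) at an unadjusted *P* under 0.05, again without overlap. *Yme1l1* (−0.033), *Parl* (−0.15), *Spg7* (−0.099), *Phb* (−0.29), and *Stoml2* (−0.18) did not reach that level. Thus 3 of the 8 were lower at that level (3.09% of all genes). With the third E165X/+ library left out, 5 of the 8 were (3.54% of all genes), with *Afg3l2* at −0.40, *Phb2* at −0.28, and *Letm1* at −0.38, joined by *Phb* and *Stoml2*.

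In MICOS and its outer membrane partners, all 10 related genes were below 0, and 4 had an unadjusted *P* under 0.05 (3.09% of all genes were lower at this level). *Micos13*, the subunit that joins the MIC60 and MIC10 subcomplexes, stood at 46.5, 35.7, and 35.0 CPM in *Ebf2*+/+ mice and at 28.4, 29.8, and 27.7 CPM in E165X/+ mice. The third E165X/+ mouse was the lowest of all, and the log2 fold change was −0.45 (SE 0.12), with an unadjusted *P* of 0.0057 and an adjusted *P* of 0.783 from edgeR. *Chchd6*, a relative of *Chchd3* that encodes MIC25, was also lowest in the third E165X/+ library, at 10.5 CPM against 12.9 and 14.5 CPM in the other E165X/+ mice and 14.5 to 17.1 CPM in *Ebf2*+/+ mice. *Mtx2* and *Dnajc11*, which encode outer membrane partners of MICOS, had log2 fold changes of −0.25 (SE 0.095) and −0.22 (SE 0.092). *Dnajc11* was at −0.14 without the first *Ebf2*+/+ mouse. The ATP synthase subunits e and g, which join the enzyme into the dimers that line crista edges, had log2 fold changes of −0.54 for *Atp5k* (SE 0.17) and −0.28 for *Atp5l* (SE 0.12), both with an unadjusted *P* under 0.05 from edgeR, *Atp5l* by a narrow margin. Of the 10 MICOS genes and partners, 6 were lower at that level without the third E165X/+ library (3.54% of all genes). *Micos13* (−0.42) was among them, and *Chchd6* (−0.22, against −0.34 in all 6 libraries) was not. *Apoo* (−0.67, against −0.21), *Samm50* (−0.37, against −0.24), and *Micos10* (−0.28, against −0.18) reached that level without that library but not in all 6. *Atp5k* and *Atp5l* were at −0.71 and −0.39 without it.

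Among other regulators, *Miga2*, which promotes fusion at the outer membrane, was lowest in the third E165X/+ library, at 55.1 CPM against 74.2 and 62.2 CPM in the other E165X/+ mice and 77.1 to 100 CPM in *Ebf2*+/+ mice. Its log2 fold change was −0.43 (SE 0.14, adjusted *P* = 0.783 from edgeR). *Pld6*, a mitochondrial phospholipase of the same step, was at 0.775 CPM or less in every library. *Crls1*, the cardiolipin synthase that makes the signature lipid of the inner membrane, stood at 43.9, 43.7, and 44.0 CPM and at 40.3, 31.7, and 33.6 CPM, lower in every E165X/+ mouse, with a fitted difference of −0.32 on the log2 scale (SE 0.097, edgeR adjusted *P* = 0.783). In the fit without the third E165X/+ library, *Miga2* was at −0.33 and *Crls1* at −0.29, both still lower at an unadjusted *P* under 0.05, and *Pld6* (−0.68, against −0.75 in all 6 libraries) no longer was. The other 7 cardiolipin genes had log2 fold changes between −0.21 and 0.012, and *Ptpmt1* (−0.21, and −0.27 without that library) was lower at that level only without it. Of 12 further fission genes, *Marchf5*, a ubiquitin ligase of the outer membrane, was the 1 with an unadjusted *P* under 0.05 in all 6 libraries, with a log2 fold change of −0.16 (SE 0.070). Another 4 of the 12 were lower at that level without the third E165X/+ library, namely *Mtfp1* (−0.79, against −0.19 in all 6 libraries), *Mul1* (−0.27, against −0.18), *Mtfr1l* (−0.19, against −0.041), and *Gdap1* (−0.97, against 0.57), and *Marchf5* (−0.16) was not. *Gdap1* was at 1.37 CPM in that library and at 0.531 CPM or less in the others. At this level 3.09% of all genes were lower in all 6 libraries and 3.54% without the third E165X/+ library. Of 4 transport genes none had such a *P* in all 6 libraries. *Rhot1*, which anchors mitochondria to motor proteins, had the smallest of them with a log2 fold change of −0.14 (SE 0.090). With 1 mouse left out, *Rhot1* lay between −0.21 and −0.081. *Rhot2* (−0.21, against −0.081 in all 6 libraries) and *Trak1* (−0.27, against −0.032) were lower at that level once the third E165X/+ library was left out.

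**Figure D5:**
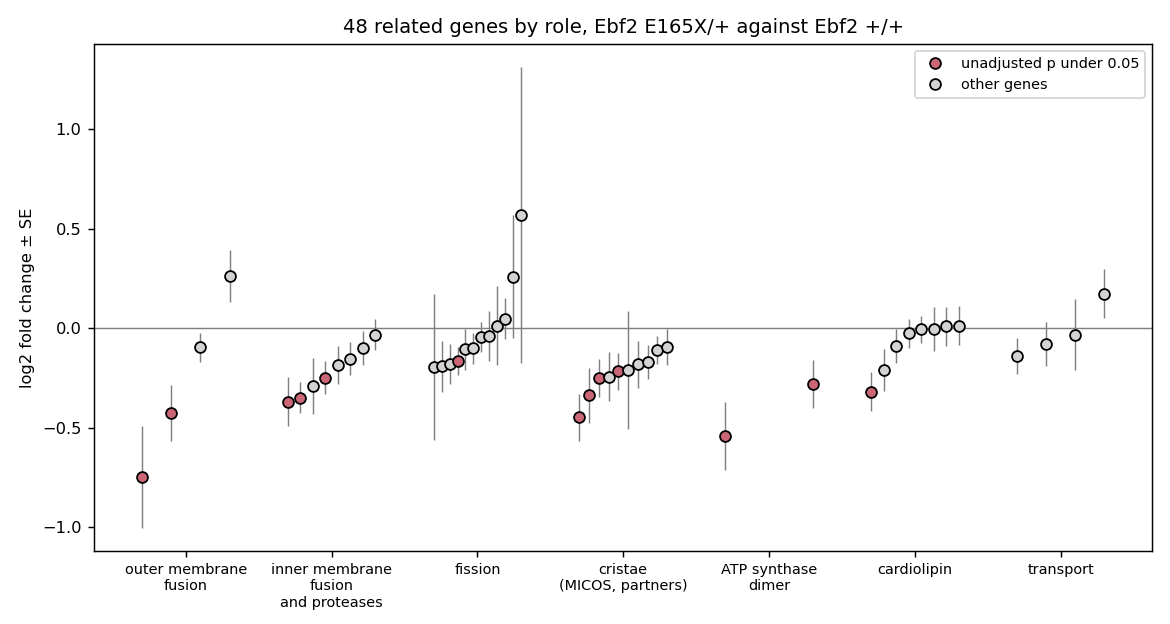
Log2 fold change ± SE (y axis) of the 48 related genes by role in all 6 libraries, with genes at an unadjusted *P* under 0.05 in red. All red points lie below 0, and the inner membrane and cristae columns lie below 0 throughout.

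Levels between genes were compared per kilobase of merged exons. In *Ebf2*+/+ mice the order was *Mfn2* (46.1 ± 3.54 CPM per kilobase, SD, n = 3), *Chchd3* (39.7 ± 3.70), *Fis1* (29.4 ± 2.49), *Dnm1l* (22.3 ± 0.878), *Immt* (21.1 ± 2.58), *Opa1* (16.5 ± 1.22), *Mfn1* (8.61 ± 0.334), *Mff* (7.35 ± 0.449), *Oma1* (5.63 ± 0.278), and *Mief1* (4.72 ± 0.0894). Only *Dnm1l* and *Immt* overlapped as neighbors in this order. The order assumes reads along the whole transcript. In plain CPM, which would apply to 3′ libraries, *Immt* and *Mfn2* came first and *Oma1* last. The 2 mitofusins differed on both scales.

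The summed share of brown and beige adipocyte markers was lower in the E165X/+ libraries. The 8 markers took 0.0157%, 0.0221%, and 0.0225% of counts in *Ebf2*+/+ libraries and 0.00441%, 0.00508%, and 0.00875% in E165X/+ libraries without overlap (*P* = 0.1, the smallest possible, and adjusted *P* = 0.367 over 11 lists in the two-sided exact permutation test). Taken singly, 5 of the 8 overlapped between the genotypes (*Cox7a1*, *Cox8b*, *Dio2*, *Elovl3*, and *Ppargc1a*), and *Cox7a1* and *Ppargc1a* were highest of all in the third E165X/+ library. The rest of the 8 were lower without overlap, as were 6.78% of genes with 10 or more counts in each library. *Cidea*, the most abundant of them and a lipid droplet protein of thermogenic fat, fell from 96.9 ± 12.7 to 10.3 ± 2.69 CPM, a log2 fold change of −3.24 (adjusted *P* = 0.00462 from edgeR, and 0.0565 without the second *Ebf2*+/+ mouse). *Ucp1*, the uncoupling protein, was at 10.8, 21.3, and 33.0 CPM in *Ebf2*+/+ mice and at 0.259, 0.264, and 0.617 CPM in E165X/+ mice. The part of these cells in the values of *Opa1*, *Immt*, and the related genes was not tested.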

How the data were processed

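The deposited values are expected counts per gene, which the authors estimated for 1 library per mouse and left unscaled. The table holds whole numbers only, so that rounding altered nothing. The submitters' processing notes name cutadapt 4.8, STAR 2.7.8a, RSEM 1.3.3, and GRCm38. The study's methods name 3′ mRNA libraries and ENSEMBL 109, whereas the sample labels give a different manufacturer's kit, and the strand setting is not given in the sources used here. Groups and replicate numbers were taken from the sample titles.

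A gene was kept where any library had 1 count or more, and libraries were TMM-normalized. Genotypes were compared with edgeR 4.0.16 in R 4.3.3, with genotype as the only term. SEs are the log2 fold change divided by the root of the *F* statistic. Logarithms of CPM used a prior count of 2. Alternatives used DESeq2 1.42.0 and limma 3.58.1. All fits were tested on simulated data. Ratios and shares of counts were compared with exact permutation tests in scipy 1.17.1, and 1 of the 11 marker lists is not reported here. *P* values of the fits set a genotype difference against the spread between these 6 mice. Those of the exact tests rank it among all splits of the mice.

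Exons, coordinates, and overlaps come from GENCODE M21 on GRCm38, and promoters from RefSeq on the same build, which held all 10 genes. No other gene outside the locus of *Mief1* was at least 95% identical over 200 bases (blastn 2.17.0). Antisense genes overlapping exons of *Dnm1l*, *Mff*, and *Immt* had at most 21, 68, and 11 counts.

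The 10 genes, all lists, and the motifs were chosen with earlier results of these data known. Named genes are the 10, *Ebf2*, *Ucp1*, *Cidea*, the most abundant gene of a marker list, and, for each role of the related genes, the gene with the smallest *P* and every gene with an unadjusted *P* under 0.05. *Adipoq* and *Plin1* are named outside this rule, as examples of the adipocyte markers. *Yme1l1*, *Parl*, *Spg7*, *Phb*, *Stoml2*, *Miga1*, *Apoo*, *Samm50*, *Micos10*, *Mtfp1*, *Mul1*, *Gdap1*, *Mtfr1l*, *Rhot2*, *Trak1*, *Ptpmt1*, *Cox7a1*, *Cox8b*, *Dio2*, *Elovl3*, and *Ppargc1a* were named after their values were seen. Older symbols (*Phb*, *Atp5k*, *Atp5l*) are those of the deposited table.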

Additional observations from a re-analysis of the deposited data

How the results depend on the processing

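None of the 10 genes passed the call in any of the 15 alternatives. The number with an unadjusted *P* under 0.05 was 2 with DESeq2, limma-voom, DESeq2's size factors, and the filters on low counts, 0 with the replicate block (2.53% of all genes lower; calls 0.00612%), 0 to 4 when single mice were left out, and 4 with the third library of each genotype left out together. Non-overlapping genes numbered 1 to 7 when single mice were left out (12.8% of genes lower without the third E165X/+ library, where the number was 7) and 10 without the third library of each genotype (21.8% of genes). The median log2 fold change of the 10 lay between −0.14 and 0.0052 with 1 mouse left out and was −0.17 without the third library of each genotype. The sign of *Mfn2*, near 0, was negative with DESeq2 and with its size factors (−0.0077), limma-voom (−0.032), filterByExpr (−0.00095), at least 10 counts in every library (−0.018), the replicate block (−0.035), and without the third library of each genotype (−0.32), and lay between −0.26 and 0.13 with 1 mouse left out. Without the third library of each genotype *Mfn1* was at −0.16 and *Oma1* at −0.040. Leaving out single mice gave ranges of −0.13 to 0.35 for *Mfn1*, −0.46 to −0.088 for *Chchd3*, −0.12 to 0.021 for *Dnm1l*, −0.11 to 0.017 for *Fis1*, −0.15 to 0.027 for *Mff*, and −0.063 to 0.037 for *Mief1*. The same step gave ratio differences of −0.058 to 0.043 for *Fis1* to *Mff*, −0.16 to 0.12 for *Immt* to *Chchd3*, −0.22 to −0.10 for *Mfn2* to *Mfn1*, and −0.25 to −0.19 for *Opa1* to *Dnm1l*. Differences in marker shares ran from −0.21 to 1.90 percentage points for skeletal muscle, −0.47 to −0.074 for adipocyte (the latter without the third E165X/+ library), −0.015 to 0.0012 for endothelial, and −0.033 to 0.069 for erythroid genes. The adjusted *P* of *Cidea* rose to 0.0565 without the second *Ebf2*+/+ mouse in edgeR. *Immt* and *Opa1* kept their sign in all alternatives, and with the replicate block their unadjusted *P* values did not pass. Nothing states that same-numbered mice were paired, and the deviations of each pair from the group means correlated at 0.15, −0.28, and −0.16. For mice with unlike numbers the correlations ran from −0.32 to 0.39, the highest between the second *Ebf2*+/+ and the third E165X/+ mouse. The causes were not tested.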

Other observations

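Of the other marker lists, none reached an adjusted *P* below 0.367 over the 11 lists in the two-sided exact permutation test. Adipocyte progenitor markers (led by *Dcn*) took 0.154 ± 0.0190% of counts in *Ebf2*+/+ libraries and 0.178 ± 0.00924% in E165X/+ libraries (SD, n = 3 mice). B cell markers (led by *Ms4a1*) took 0.0349 ± 0.00938% and 0.0458 ± 0.00465%. By summed share the genotypes did not overlap for these 2 lists (*P* = 0.1 for both, the smallest that the exact permutation test allows). By mean log2 CPM over the list, which weights genes equally, the difference was 0.37 for B cell markers (*P* = 0.1, exact permutation test) but 0.11 for progenitor markers (*P* = 0.6, exact permutation test). The difference in share was 0.0108 percentage points for B cell markers and 0.00544 without the first *Ebf2*+/+ mouse, and 0.0235 for progenitor markers and 0.0128 without the second *Ebf2*+/+ mouse. Macrophage (*Mrc1*), T cell (*Cd8a*), endothelial (*Pecam1*), epithelial (*Krt5*), and erythroid (*Hbb-bs*) markers overlapped between the genotypes by summed share. By mean log2 CPM endothelial markers differed by −0.21 and adipocyte markers by −0.35 (*P* = 0.1 for both, exact permutation test). The third E165X/+ library was the lowest of the 6 in adipocyte markers, at 1.05%, and in endothelial markers, at 0.0706%. Among thermogenic markers, *Cox7a1* and *Ppargc1a*, which muscle also expresses, were highest of all in it. *Cox7a1* stood there at 21.7 CPM, against 4.14 and 2.46 CPM in the other E165X/+ libraries and 12.5, 19.0, and 13.8 CPM in *Ebf2*+/+ libraries. *Ppargc1a* stood there at 14.7 CPM, against 9.28 and 9.31 CPM and against 9.53, 13.1, and 13.2 CPM in the same order. The part of muscle RNA in these values was not tested.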
